A study of Drosophila melanogaster with 12 samples.

Results

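The nuclear genes for subunits of the respiratory chain were followed in *Drosophila* larvae that lack the estrogen-related receptor dERR. Members were all genes of the deposited expression table whose symbols begin with ND-, UQCR-, ATPsyn, or COX and a digit, which gave 79 of 24134 genes listed. By these prefixes, 40 members belong to complex I, 9 to complex III, 15 to complex IV and 15 to the ATP synthase. Among the 79 members, 58 are named as subunits and 21 as paralogs of a subunit, with a symbol that adds an L, or an L and a digit, to the name of the subunit.

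The respiratory chain sits in the inner mitochondrial membrane. Complex I passes electrons of NADH to ubiquinone, complex III passes them on to cytochrome c, and complex IV passes them to oxygen, while the ATP synthase uses the resulting proton gradient to make ATP. Most subunits are nuclear genes whose products are imported and joined with the few subunits encoded in mitochondrial DNA. In mammals, members of the ERR family are known as regulators of genes for oxidative metabolism. Several *Drosophila* subunits have paralogs that are known mainly from the testis.

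RNA-seq was performed on fat bodies and on whole larvae of the second instar, with 3 samples each of ERR1/2 mutant fat bodies, ERR1/+ heterozygous control fat bodies, ERR1/2 mutant whole animals and ERR1/+ control whole animals. Mutants carried the ERR1 allele over the ERR2 allele, and controls carried the ERR1 allele over a wild type chromosome, so that every sample held at least 1 ERR1 allele and the mutation was present in all cells and not in fat body alone. The sample records give an age of 60 h at 25 °C, whereas the methods of the study give a somewhat older age for the sequenced larvae, and the methods call the dissected pools of larvae technical replicates. The p-values therefore measure only the spread between these samples, which may be technical. Values are regularized log2 values (rlog): counts divided by a size factor for each sample, on a log2 scale, and shrunk toward the mean of each gene. A difference of 1 is a 2-fold change on this scale, and the values do not show how deeply a sample was sequenced.

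The *ERR* transcript was at 8.40, 8.25 and 8.39 in mutant fat bodies, against 9.11, 9.24 and 8.29 in control fat bodies, so that the library labelled fat body control replicate 7 lay within the range of the mutants. It was at 8.21, 8.28 and 8.01 in mutant whole animals, against 8.16, 8.39 and 8.37 in control whole animals, and these groups overlapped. *Pgi*, a glycolytic gene chosen after its values were seen, was at 9.19 to 9.59 in mutant fat bodies, against 13.77 to 14.05 in control fat bodies with replicate 7 at 13.86, and the fat body groups were thus far apart. In whole animals it was at 9.71, 9.46 and 9.29 in mutants, against 12.60, 12.60 and 12.72 in controls, which separated these groups as labelled. Markers fitted the labelled tissue: 5 of 5 measured fat body markers were higher in control fat bodies than in control whole animals, and 9 of 9 muscle markers and 7 of 7 gut markers were lower (limma, adjusted p under 0.05). Over all genes tested, 24.9% were called higher and 46.8% lower.

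Not every member passed the filter on low values, and a value of 0 or below the filter does not show that a gene is silent. Genes were tested where any of the 4 groups had a mean of 3.32 (log2 of 10) or more, a filter that 59 members and 10069 genes in all passed. These 59 were 57 of the 58 subunits, called the expressed subunits below, and 2 of the 21 paralogs, *ATPsynepsilonL* and *UQCR-11L*. Of the 20 members below the filter, the paralogs *ATPsynCF6L*, *COX6AL2*, *COX6CL*, *ND-20L*, *ND-24L*, *ND-51L2*, *ND-B14.5AL* and *UQCR-14L* were listed at 0 in all 12 samples. Another 11 paralogs had values in the table and stayed below the filter: *ATPsynGL*, *ATPsynbetaL*, *COX4L*, *COX5BL*, *COX6AL*, *COX7AL*, *COX7AL2*, *COX7CL*, *ND-49L*, *ND-51L1* and *UQCR-6.4L*.

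*ND-B8*, which codes for an accessory subunit of complex I, was the subunit that did not pass. It was at −0.97, 0.70 and 0.04 in mutant fat bodies, against −0.97, 0.29 and −0.95 in control fat bodies. It was at 2.07, −0.31 and 0.61 in mutant whole animals, against 0.07, 1.88 and 0.07 in control whole animals. All 12 values lay below the filter, the groups overlapped in both tissues, and no test was made. In the BDGP6.54 annotation, *ND-B8* (2L from 4454626 to 4455207, plus strand) overlaps *Gs1l* on the opposite strand. Whether the low values of *ND-B8* reflect low expression or the way reads were counted was not tested and cannot be settled from these values.

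The 57 expressed subunits were scattered over chromosome X, both arms of chromosomes 2 and 3, and chromosome 4. Within a tissue they tended to be high or low in the same libraries, as seen when each value was set against the mean of its gene over the 6 samples of the tissue. In the library labelled fat body control replicate 7, the median of the 57 deviations was −0.27, and it was 0.06 and 0.11 in the other control fat bodies. That library held the lowest value of its group in 56 of 57 subunits, against 32.8% of all genes tested, and the exception was *ND-B14.5B*. In whole animals, mutant replicate 1 held the highest value of its group in 57 of 57 subunits, against 44.1% of all genes tested, with a median deviation of 0.27. The medians of the other whole animal mutants were −0.01 and 0.02.

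**Figure D1:**
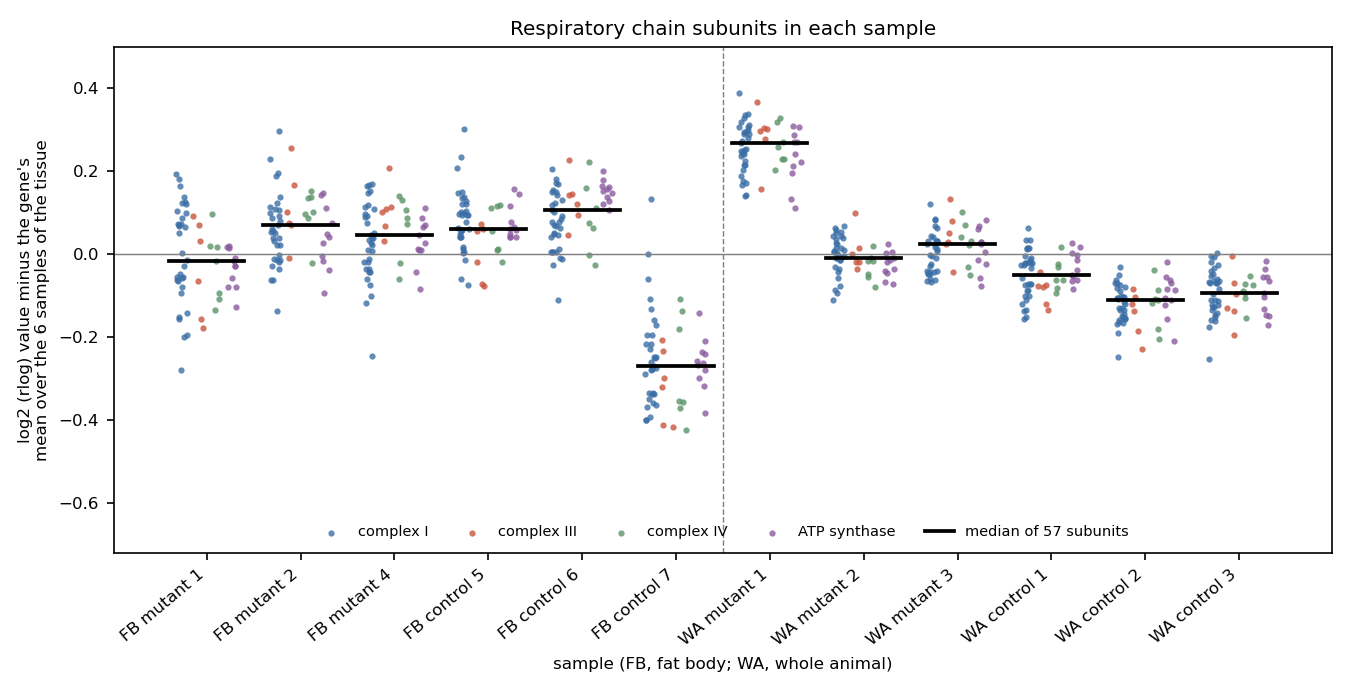
Deviation of each of the 57 expressed subunits from the mean of its gene over the 6 samples of the tissue, on the log2 (rlog) scale, by sample, coloured by complex. Black bars are medians over the 57 subunits. The library labelled fat body control 7 lies low, with a median of −0.27, and whole animal mutant 1 lies high, with a median of 0.27, in all 4 complexes.

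The low level in the library labelled fat body control replicate 7 was shared by all 4 complexes. Relative to the mean of the other 2 control fat bodies, the median difference was −0.34 for the 33 complex I subunits, −0.41 for the 6 of complex III, −0.38 for the 7 of complex IV and −0.39 for the 11 of the ATP synthase, while the median over all genes tested was 0.02. All 4 genes for complex II and all 8 assembly factors listed were also lower in that library, whereas 10 of 12 measured subunits encoded in mitochondrial DNA were higher, by a median of 0.28. The same library held more transcript of some other tissues, on the muscle, neuron and germline lists. Of the gut markers, 3 were higher and 4 lower. Of the hemocyte markers 3 were higher and 2 lower, and of the salivary gland markers 2 were higher and 2 lower in that library. All 9 muscle markers were higher in it, by 0.37 to 2.88, and the summed level of the list was 11.2 on the log2 scale, with 9.26 and 9.61 in the other control fat bodies and 9.01 to 9.73 in mutant fat bodies. The summed level of the 7 germline markers was 8.20, with 3.06 and 5.20 in the other control fat bodies and 1.91 to 6.98 in mutant fat bodies, while *can* and *sa* stayed at −1.27 and −1.46. The part of these markers in the results below was not tested.

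Whole animal mutant replicate 1 differed in another way. Relative to the mean of the other mutant whole animals, the subunits were higher by a median of 0.26 (57 of 57 higher), and the subunits encoded in mitochondrial DNA were lower in 8 of 12. All 7 gut markers were higher there, by 0.49 to 0.72, and all 5 neuronal markers were lower, by 0.10 to 2.08, with *elav* at 6.22 against 8.30 and 8.29. The part of gut and nerve tissue in the subunit values was not tested.

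In fat bodies, the subunits differed little between dERR mutants and controls. No member passed an adjusted p-value of 0.05 (limma's moderated test, Benjamini-Hochberg adjustment over all genes tested), where 22.3% of all genes tested were called, 11.1% higher and 11.2% lower. At an unadjusted p under 0.05 there were 6 of 59 members (5 of them subunits), which is 10.2% against 33.6% of all genes tested. The median log2 difference of the 57 subunits was 0.06, the range ran from −0.28 to 0.27, and 43 were positive and 14 negative, while the median over all genes tested was −0.07. The 95% intervals of all 57 subunits lay within 1 of 0 on the log2 scale, and those of 56 lay within 0.5. Mutant and control fat bodies did not overlap in 6 of 57 subunits, all with the mutants above, which is 10.5% against 14.2% of all genes tested. No subunit had the mutants below without overlap, against 25.8% of all genes tested. To do so the mutants had to lie below the lowest control, which was the library labelled fat body control replicate 7 in 56 of 57 subunits.

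The subunits named in this comparison were chosen after their values were seen. *ND-51* (2L from 6060842 to 6062757), the complex I subunit that binds NADH and FMN, had the largest positive difference among subunits. It was at 12.47, 12.43 and 12.38 in mutant fat bodies, against 12.22, 12.30 and 11.96 in control fat bodies. The groups did not overlap, and the log2 difference was 0.27 ± 0.09 (SE, n = 3 each; limma adjusted p = 0.064). Of the 7 core subunits of complex I, which carry the flavin and iron-sulfur centres, 5 were higher and 2 lower, with a median of 0.16. The median of the 26 expressed accessory subunits was 0.05.

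*ND-B14.5B*, an accessory subunit of complex I, had the most negative difference. It was at 10.90, 11.12 and 10.85 in mutant fat bodies, against 11.40, 11.09 and 11.23 in control fat bodies, and mutant replicate 2 lay above the lowest control. The log2 difference was −0.28 ± 0.12 (SE; limma adjusted p = 0.11). In complex III, 6 of 6 subunits were positive, with a median of 0.13, and *UQCR-C1*, a core protein of that complex, was the largest at 0.21 ± 0.13 (SE; limma adjusted p = 0.30). In complex IV the median was 0.06, and *COX7A* was at 12.97, 13.01 and 13.00 in mutant fat bodies, against 12.88, 12.87 and 12.50 in control fat bodies. These groups did not overlap, with a difference of 0.24 ± 0.11 (SE; limma adjusted p = 0.14). The ATP synthase had the lowest median of the 4 complexes, 0.03, and *ATPsynbeta*, its catalytic subunit, differed by 0.03 ± 0.11 (SE; limma adjusted p = 0.87).

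The sign of these small differences changed with the treatment of 1 library. Without the library labelled fat body control replicate 7, the median of the 57 subunits was −0.05, with 16 positive and 41 negative, and *ND-13A*, an accessory subunit of complex I, was called lower (−0.29 ± 0.08, limma adjusted p = 0.027). With array weights, which weigh each library by its distance from its group, 25 were positive and 32 negative. All 9 muscle markers had a negative difference between mutant and control fat bodies (median −0.66), and 1 was called, *sls*, where 22.3% of all genes tested were. The part of muscle transcript in the subunit differences was not tested. Without control replicate 6 or without whole animal mutant replicate 1, *ND-51* was called higher (adjusted p = 0.034 and 0.047, limma). Quantile normalization within each tissue gave a median of 0.19 and called 13 subunits higher, among them *ND-51* (0.41), *COX7A* (0.41), *COX5A* (0.40) and *UQCR-C1* (0.36), with all genes called higher at 11.6%.

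**Figure D2:**
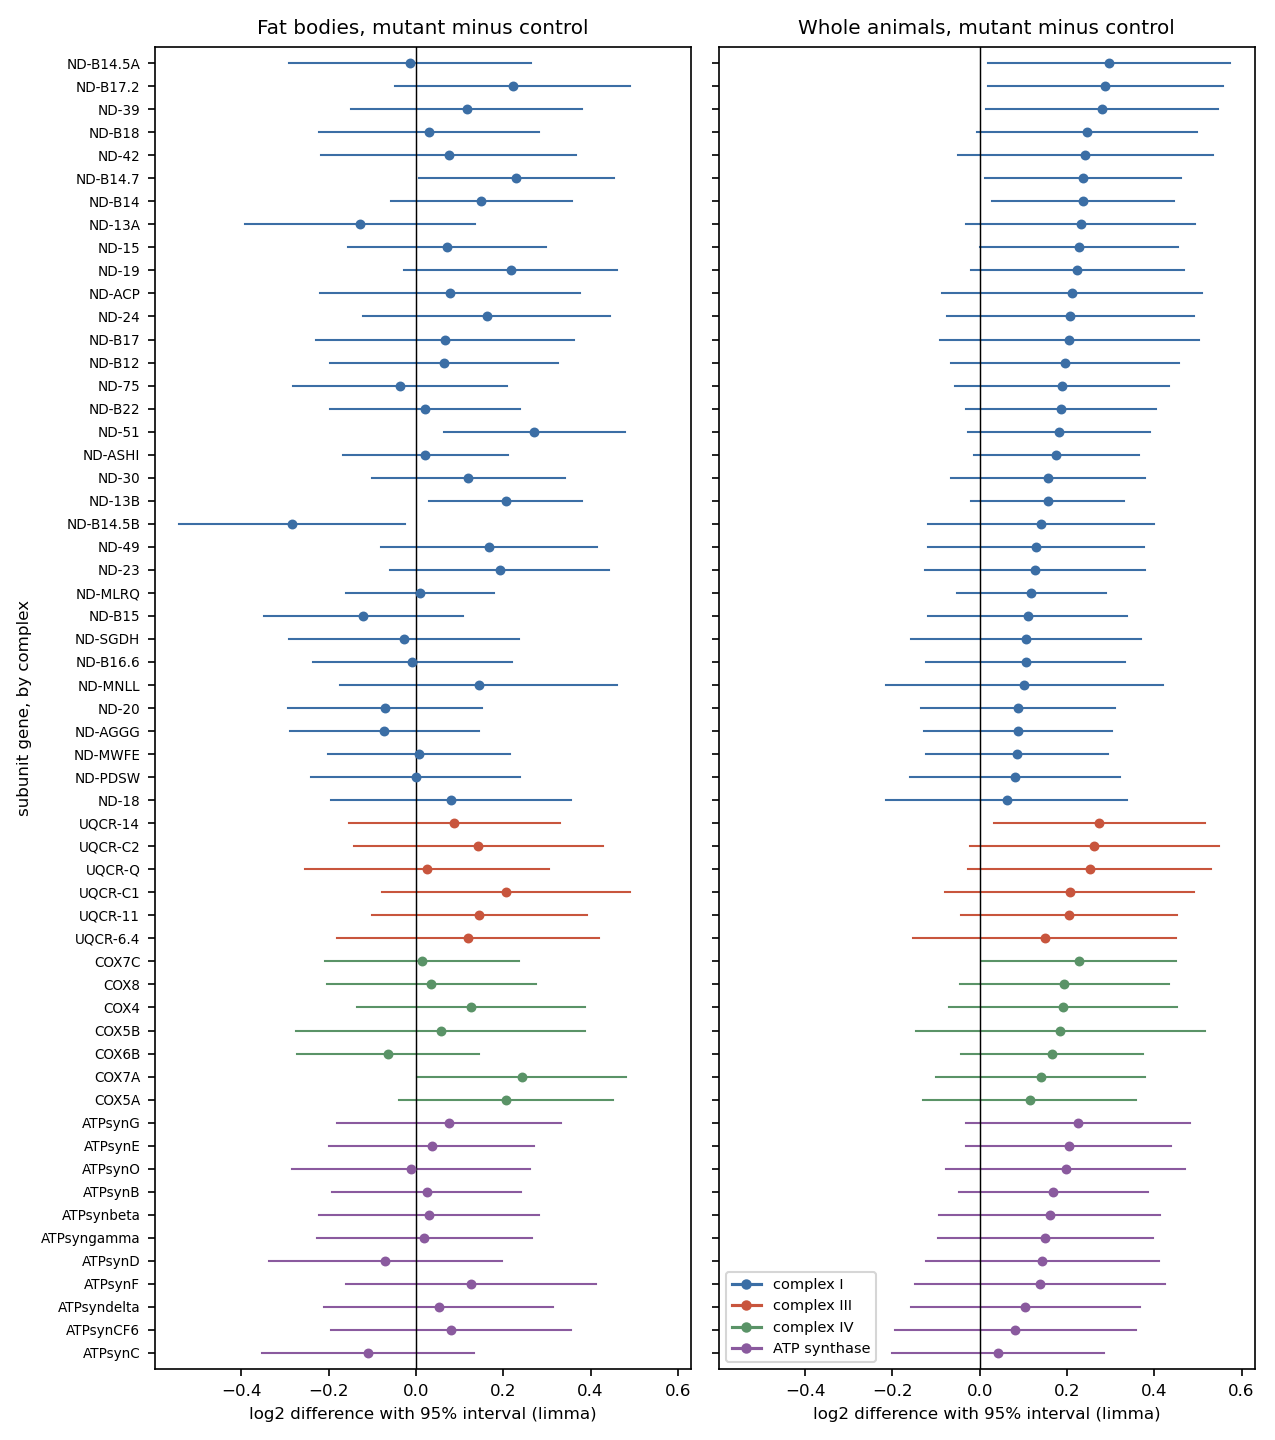
Log2 difference, mutant minus control, of the 57 expressed subunits in fat bodies (left) and whole animals (right), with 95% intervals from limma, ordered by complex and by the difference in whole animals. Fat body points lie on both sides of 0, from −0.28 to 0.27, and all 57 whole animal points lie above 0, up to 0.30.

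In whole animals, all 57 expressed subunits had a positive difference between dERR mutants and controls, and all were small. The median was 0.18, the range ran from 0.04 (*ATPsynC*, the ring subunit of the ATP synthase) to 0.30 (*ND-B14.5A*, of complex I), and the median over all genes tested was 0.01. No member passed an adjusted p-value of 0.05 in limma, where 3.29% of all genes tested were called, 0.725% higher and 2.56% lower. At an unadjusted p under 0.05 there were 8 of 59 members, which is 13.6% against 11.1% of all genes tested, and thus near the background in this fit. That count changed much with the fit, as given below. All 8 were subunits and higher in mutants, and the smallest adjusted p was 0.33. All 57 intervals lay within 1 of 0, 47 lay within 0.5, and the highest upper bound was 0.57. Mutants lay above controls without overlap in 32 of 57 subunits, which is 56.1% against 13.7% of all genes tested. These were 17 of 33 in complex I, 6 of 6 in complex III, 4 of 7 in complex IV and 5 of 11 in the ATP synthase.

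The sum of the gut markers was also higher in mutant whole animals. The summed level of the 7 gut markers was 15.45, 15.07 and 14.72 on the log2 scale in mutant whole animals, against 14.61, 14.58 and 14.52 in control whole animals, without overlap. Among the mutants the order was not the same: the median subunit deviations were 0.27, −0.01 and 0.02 in replicates 1, 2 and 3. Of the 7, 6 had a positive difference, the median was 0.45, and 0 were called by limma, with 2 at an unadjusted p under 0.05, *alphaTry* (1.06) and *betaTry* (1.33). Over all genes tested, 3.29% were called and 11.1% had an unadjusted p under 0.05. The part of gut tissue in the subunit differences was not tested. Some other mitochondrial lists had only positive differences in whole animals, from 0.11 to 0.28 for the 4 genes of complex II. The range was 0.07 to 0.25 for 7 subunits with other names, and 0.02 to 0.22 for 7 mitochondrial genes outside the chain. Others had both signs, from −0.03 to 0.315 for 8 assembly factors and from −0.316 to 0.269 for 9 measured biogenesis factors. The 12 measured subunits encoded in mitochondrial DNA ran from −1.29 to 0.22.

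The largest differences, again chosen after the values were seen, were in complex I. *ND-B14.5A* (X from 2172526 to 2173432) was at 10.23, 9.84 and 9.91 in mutant whole animals, against 9.74, 9.67 and 9.67 in control whole animals. The groups did not overlap, mutant replicate 1 was the farthest from the controls, and the log2 difference was 0.30 ± 0.13 (SE, n = 3 each; limma adjusted p = 0.38). *ND-B14*, another accessory subunit, had the smallest adjusted p. It was at 10.46, 10.22 and 10.21 in mutant whole animals, against 10.09, 10.03 and 10.05 in control whole animals, with no overlap and a difference of 0.24 ± 0.09 (SE; limma adjusted p = 0.33).

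Complex III had the highest median of the 4 complexes, at 0.23. *UQCR-14*, a small subunit (X from 16286288 to 16286988), was at 12.31, 11.96 and 11.97 in mutant whole animals, against 11.86, 11.81 and 11.75 in control whole animals. The groups did not overlap, and the difference was 0.27 ± 0.11 (SE; limma adjusted p = 0.33). In complex IV, *COX7C* was at 12.17, 11.81 and 11.93 in mutant whole animals, against 11.77, 11.65 and 11.80 in control whole animals. Mutants lay above controls by a narrow margin, and the difference was 0.23 ± 0.10 (SE; limma adjusted p = 0.43). *ATPsynbeta* (chromosome 4 from 1031484 to 1034917) was at 15.74, 15.63 and 15.69 in mutant whole animals, against 15.54, 15.49 and 15.56 in control whole animals, again without overlap, with a difference of 0.16 ± 0.11 (SE; limma adjusted p = 0.77).

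The size of the whole animal differences depended on mutant replicate 1. Without it the median was 0.10, 52 subunits were positive and 5 negative, and no subunit had an unadjusted p under 0.05 in limma, against 9.11% of all genes tested in that fit. With array weights the median was 0.12, 55 were positive, and 0 subunits were called, against 9.48% of all genes tested. In that fit 21 of 57 had an unadjusted p under 0.05, which is 36.8% against 20.9% of all genes tested. Without the library labelled fat body control replicate 7, which shares in the estimate of the spread, 26 of 57 did (45.6% against 13.5%). With quantile normalization within each tissue 30 of 57 did (52.6% against 13%). Without whole animal control replicate 2, 0 of 57 did, against 9.04%. In each of these fits 0 subunits were called. The whole animal is a mixture of tissues, and in such bulk samples fewer cells of a type and less RNA per cell cannot be told apart.

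The genotype change was not shown to differ between the tissues for any member. The interaction of genotype and tissue (fat body change minus whole animal change) called 0 of 59 members in limma, where 10.2% of all genes tested were called, 5.86% higher and 4.39% lower, and 1 member, *ND-B14.5B*, had an unadjusted p under 0.05, which is 1.69% against 23.1% of all genes tested. *ND-B14.5B* had a fat body difference of −0.28 and a whole animal difference of 0.14, a difference of −0.42 ± 0.16 (SE; 95% interval −0.79 to −0.06; limma adjusted p = 0.15). Over the 57 subunits the median was −0.13, with 8 positive and 49 negative, and the intervals of all 57 lay within 1 of 0 and of 35 within 0.5. Without the library labelled fat body control replicate 7, all 57 were negative, with a median of −0.23, 19 had an unadjusted p under 0.05 (33.3% against 27.4% of all genes tested), and *ND-13A* was called (−0.52 ± 0.11, limma adjusted p = 0.011). Without whole animal mutant replicate 1 the median was −0.05, with 19 positive and 38 negative.

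The subunits differed far more between the tissues than between the genotypes. In controls, 56 of 59 members were higher in fat bodies and 0 were lower, relative to whole animals (limma adjusted p under 0.05), where 71.7% of all genes tested were called, 24.9% higher and 46.8% lower. At an unadjusted p under 0.05, 56 of the 57 subunits were higher and 0 were lower. The share of subunits was 98.2%, against 25.8% of all genes tested that were higher at this threshold. The members not called higher were *ND-13B*, *ATPsynepsilonL* and *UQCR-11L*. The median difference of the 57 subunits was 0.55, from 0.10 (*ND-13B*) to 1.00 (*ND-ACP*), and the median over all genes tested was −0.38. With the treat test of limma, which asks for a change beyond 1 on the log2 scale, 0 members were called higher. The control groups did not overlap in 55 of 57 subunits, against 27.4% of all genes tested with fat bodies above. With mutants included, all 6 fat body samples lay above all 6 whole animal samples in 22 of 57 subunits, against 17.1% of all genes tested. Between mutant groups, which were not tested, the fat body mean was the higher in 57 of 57, with a median difference of 0.42.

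*ND-ACP* (3L from 1329949 to 1331631), the mitochondrial acyl carrier protein that is also part of complex I, had the largest tissue difference. It was at 13.00, 13.05 and 12.53 in control fat bodies, against 11.83, 11.86 and 11.88 in control whole animals, and the difference was 1.00 ± 0.13 (SE; limma adjusted p = 4.7e-05). *UQCR-6.4* (2R from 17572096 to 17572784), a small subunit of complex III, came next. It was at 11.48, 11.46 and 11.12 in control fat bodies, against 10.56, 10.52 and 10.50 in control whole animals, and the difference was 0.83 ± 0.14 (SE; limma adjusted p = 0.00022). In both genes the lowest fat body value came from the library labelled control replicate 7 and was still above all whole animal values.

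By complex, the median tissue difference was 0.50 in complex I, 0.66 in complex III, 0.52 in complex IV and 0.68 in the ATP synthase. Within complex I, the 7 core subunits lay between 0.35 and 0.60, and the accessory subunits were wider, from 0.10 to 1.00. Within the ATP synthase, the 3 subunits of the F1 head, *ATPsynbeta*, *ATPsyngamma* and *ATPsyndelta*, lay at 0.68 to 0.72, and the 8 subunits of the membrane part and stalk lay at 0.48 to 0.78. *ND-13B*, of complex I, was the exception among subunits, at 10.69, 10.68 and 10.44 in control fat bodies, against 10.60, 10.48 and 10.44 in control whole animals, and these groups overlapped. Its difference was 0.10 ± 0.08 (SE; limma adjusted p = 0.29), and it was called higher without the library labelled fat body control replicate 7. Centring each sample on its median shifted the median of all genes by 0.90, so that 5095 genes were called higher and 3348 lower in place of 2509 and 4708. The subunits lay 0.93 above the median of all genes in both scalings. Centring shifts all genes of a sample by the same amount, so this gap could not change and is no check of it.

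**Figure D3:**
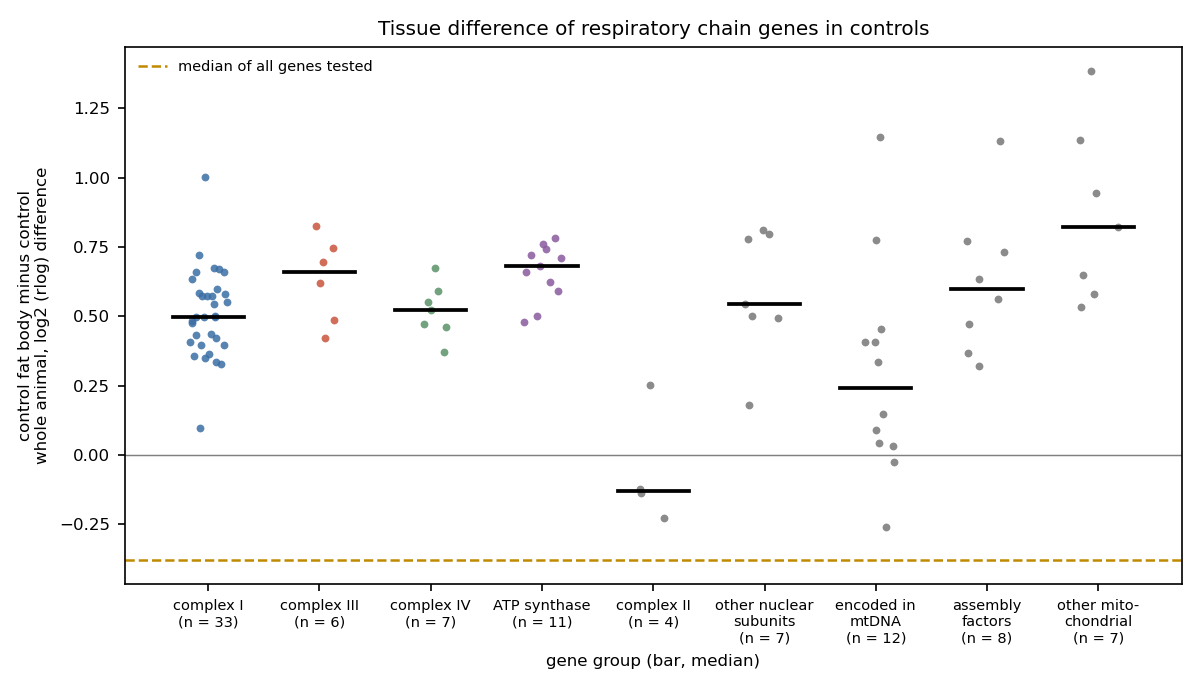
Control fat body minus control whole animal difference on the log2 (rlog) scale for each expressed subunit by complex (colours) and for genes of 5 other lists (grey). Black bars are medians, and the dashed line is the median of all genes tested, at −0.38. The medians of complexes I, III and IV and the ATP synthase lie between 0.50 and 0.68, and that of complex II lies at −0.13.

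Genes of the same pathway outside the naming rule of the members gave mixed results. Complex II, the succinate dehydrogenase that feeds electrons from the Krebs cycle into the chain, had a median of −0.13 between control fat bodies and control whole animals. Of its 4 genes, 0 were called, against 71.7% of all genes tested. At an unadjusted p under 0.05 there were 2, *SdhA* (−0.23 ± 0.10) and *SdhB* (0.25 ± 0.11), against 73.5% of all genes tested. *SdhA*, its flavoprotein subunit, was at 11.75, 11.64 and 11.86 in mutant fat bodies, against 12.13, 12.20 and 11.83 in control fat bodies. It was called lower in mutants by a narrow margin (−0.30 ± 0.10, limma adjusted p = 0.049), the library labelled control replicate 7 lay within the mutant range, and the call was lost under 17 of 21 alternatives. The other 3 genes of the complex were not called between genotypes. Of all genes tested, 22.3% were called in fat bodies and 3.29% in whole animals.

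Subunits with other names were counted in the same way. Of the 7 measured, *RFeSP*, *Cyt-c1*, *levy*, *cype*, *sun* and *blw* were higher in control fat bodies than in control whole animals, and *ox* was not called. The share called higher over all genes tested was 24.9%. Between genotypes 0 of 7 were called in either tissue by limma, against 22.3% of all genes tested in fat bodies and 3.29% in whole animals. At an unadjusted p under 0.05 there were 0 in fat bodies, against 33.6%, and 1, *cype*, in whole animals, against 11.1%. *blw*, the alpha subunit of the ATP synthase, was higher in control fat bodies by 0.81 ± 0.12 (SE; limma adjusted p = 8.6e-05), and its partner in the F1 head, *ATPsynbeta*, was higher by 0.72 ± 0.11 (SE; limma adjusted p = 0.00017). *Cyt-c-p*, the cytochrome c of most tissues, was higher in control fat bodies by 0.93 ± 0.15 (SE; limma adjusted p = 0.00018).

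Of the 12 measured subunits encoded in mitochondrial DNA, *mt:ND1*, *mt:ND3*, *mt:ND6*, *mt:CoII* and *mt:ATPase6* were called higher in control fat bodies than in control whole animals, and the median was 0.24. The share called higher over all genes tested was 24.9%. *mt:ATPase8* was listed at 0 in every sample. None was called between genotypes by limma, and at an unadjusted p under 0.05 there were 2 in fat bodies, *mt:ND1* (−0.38 ± 0.12) and *mt:ND3* (−0.71 ± 0.27), and 3 in whole animals. These 3 were *mt:ND2* (−0.95 ± 0.32), *mt:ND4L* (−1.29 ± 0.42) and *mt:ND5* (−0.43 ± 0.18), with limma adjusted p-values of 0.20, 0.19 and 0.36. In each of the 3, all mutant whole animals lay below all control whole animals, as in 13.5% of all genes tested. The 3 were picked by their p-values. Over the 12 subunits the whole animal median was −0.03, from −1.29 to 0.22. Of all genes tested, 33.6% in fat bodies and 11.1% in whole animals had an unadjusted p under 0.05 in limma, and 22.3% and 3.29% were called.

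Among 8 assembly factors, all 8 were higher in control fat bodies than in control whole animals, against 24.9% of all genes tested. Between genotypes, 1 of the 8 was called in fat bodies, against 22.3% of all genes tested, and 0 in whole animals, against 3.29%. The gene called was *Cox17*, the copper chaperone that serves complex IV. It was at 10.36, 10.88 and 10.34 in mutant fat bodies, against 9.74, 9.96 and 9.02 in control fat bodies, without overlap. The difference was 0.96 ± 0.22 (SE; limma adjusted p = 0.0091). The call was lost under 2 of 21 alternatives, with the tissues fitted apart and with the treat test. Among 9 measured factors for mitochondrial transcription and biogenesis, 1 was called in fat bodies, against 22.3% of all genes tested, and 0 in whole animals. That factor was *srl*, the fly relative of the PGC family of coactivators that work with ERR receptors in mammals, and it was lower in mutants. It was at 9.84, 9.70 and 10.04 in mutant fat bodies, against 10.55, 10.56 and 10.57 in control fat bodies, again without overlap, and the difference was −0.70 ± 0.17 (SE; limma adjusted p = 0.015). The call was lost under 3 of 21 alternatives, among them the fit without fat body mutant replicate 2. In the tissue comparison, 5 of these 9 factors were higher in control fat bodies, against 24.9% of all genes tested.

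A list of 7 other mitochondrial genes served for comparison. Of these, 7 of 7 were higher in control fat bodies than in control whole animals, with a median of 0.82, against 24.9% of all genes tested. *Hsc70-5*, a mitochondrial chaperone, was at 14.38, 14.56 and 14.61 in mutant fat bodies, against 14.21, 14.26 and 13.90 in control fat bodies. It was called higher in mutants (0.40 ± 0.10, limma adjusted p = 0.017), and the call was lost under 5 of 21 alternatives, among them the fits without fat body mutant replicate 2 and without replicate 4. This was the 1 gene of the 7 called between genotypes in fat bodies, against 22.3% of all genes tested, and 0 were called in whole animals.

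*ATPsynepsilonL* (3R from 10121773 to 10122320), a paralog of the epsilon subunit *sun*, was the paralog with the widest spread. It was at −0.80, −0.90 and −0.995 in mutant fat bodies, against −0.79, −0.79 and 6.04 in control fat bodies. It was at 4.23, 4.04 and 4.13 in mutant whole animals, against 4.95, 1.88 and 4.14 in control whole animals. In fat bodies it was thus high in the library labelled control replicate 7 alone. It was not called in any comparison (fat bodies −2.38 ± 1.53, limma adjusted p = 0.32). Between control tissues the difference was −2.17, and without that library −4.45. The gene passed the filter only through whole animals, with group means of −0.90 and 1.49 in fat bodies, against 4.13 and 3.66 in whole animals, so that a lower level in fat bodies is a description and no test of it is given.

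The germline gene *vas* was at 7.55 in the library labelled fat body control replicate 7, against 2.39 and 4.59 in the other control fat bodies, and *nht*, a testis gene, was at 3.47 there, against −0.998 and −0.992. *vas* was also high in fat body mutant replicate 1, at 6.23, where *ATPsynepsilonL* was at −0.80 and *nht* at −1.003. *ATPsynbetaL*, a paralog of *ATPsynbeta* below the filter, was at 2.45, 1.73 and 1.62 in mutant fat bodies, against −0.72, −0.71 and 4.25 in control fat bodies. Its highest fat body value also came from the library labelled control replicate 7. The part of germline tissue in these values was not tested.

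*UQCR-11L* (2R from 8677219 to 8677661), a paralog of a small complex III subunit, was at 3.99, 4.95 and 4.61 in mutant fat bodies, against 3.77, 3.13 and 3.92 in control fat bodies. Mutants lay above controls without overlap, by a narrow margin. The difference was 0.91 ± 0.33 (SE; limma adjusted p = 0.073), and it was called without fat body mutant replicate 1 (1.17, adjusted p = 0.028) and without a variance trend (0.91, adjusted p = 0.045). In whole animals it was at 2.93, 3.07 and 3.19 in mutants, against 2.77, 2.98 and 3.35 in controls, with overlap and a difference of 0.03 ± 0.33 (SE; limma adjusted p = 0.999). It lies inside *Acsl* on the same strand, so its reads can be hard to tell from those of its host gene, and its value is uncertain.

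**Figure D4:**
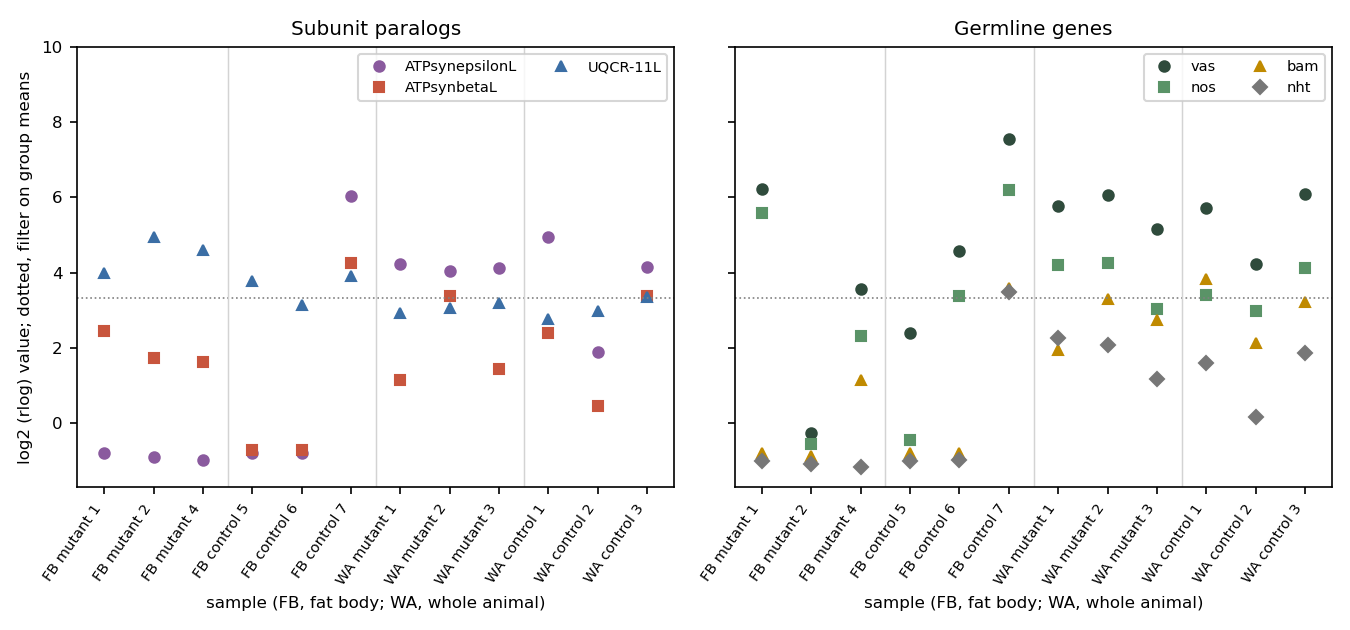
Log2 (rlog) values of 3 subunit paralogs (left) and of 4 germline genes (right) in each of the 12 samples, with the filter on group means as a dotted line at 3.32. In fat bodies, *ATPsynepsilonL* and *nht* lie above that line in the library labelled control 7 alone, and *UQCR-11L* lies higher in the 3 mutants than in the 3 controls.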

How the data were processed

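RNA-seq data of 12 samples (4 groups of 3) were taken from the deposited table of log2 values. Per the labels, libraries were stranded, poly-A selected and sequenced in pairs. Per the study's methods, the authors quantified reads with Salmon (1.10.2) against the BDGP6 assembly and Ensembl annotation, summed transcripts to genes, and made the deposited rlog log2 values with DESeq2 (1.42.0), which divides counts by size factors and shrinks each gene, so that small differences of low genes are understated. The values are not counts, and depth and counting error are unknown.

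In R (4.3.3), limma (3.58.1) was fitted to the values with 1 mean per group over all 12 samples and a variance trend, for the 10069 genes with a group mean of at least 3.32. This stands in for the authors' count model. P-values were adjusted by Benjamini-Hochberg over these genes and called under 0.05. With 3 against 3 samples, a two-sided exact permutation test cannot go below 0.1. The model was tested on simulated data. Positions come from the Ensembl annotation of BDGP6.54 and were found for 79 of 79 members. Figures were drawn with matplotlib (3.10.9).

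The members and gene lists were chosen with earlier results of these data known. The rule for named members took, per comparison and complex, up to 3 called members in each direction with the largest changes, every paralog, every member below the filter, and the 2 largest tissue differences in each direction. Since no member was called between genotypes, subunits named there were chosen after their values were seen. Alternatives were 2 other filters, array weights, no variance trend, 2 scalings, 2 thresholds, each tissue alone, a replicate block and leaving out each sample. No sequences are shown.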

Additional observations from a re-analysis of the deposited data

How the results depend on the processing

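The median difference of the 57 subunits ranged over all alternatives from −0.05 to 0.19 in fat bodies, from 0.10 to 0.22 in whole animals, from −0.23 to −0.0016 for the interaction and from 0.49 to 1.45 between control tissues. With no variance trend, 1 member was higher in mutant fat bodies, and with quantile normalization 13 were. The treat test left 0 members higher in control fat bodies than in control whole animals. With array weights, 1 member, *ATPsynepsilonL*, was lower in control fat bodies, but it passed the filter only through whole animals, so its direction there follows from the filter and the call supports nothing. Leaving out each sample in turn gave 0 to 1 members higher and 0 to 1 lower in mutant fat bodies, and 0 to 1 with a more negative change in fat bodies. Between control tissues these fits gave 51 to 57 members higher and 0 to 1 lower in fat bodies, with 22.7% to 25.3% of all genes tested called higher. The 1 lower was again *ATPsynepsilonL*, without the library labelled fat body control replicate 7, and that call supports nothing for the same reason. Centring each sample on its median turned the control tissue differences of *ewg* (0.61), *mt:CoI* (0.88), *SdhA* (0.68), *SdhC* (0.76) and *SdhD* (0.78) to higher in fat bodies. The whole animal replicate numbers do not pair the samples: same-numbered deviations correlated at −0.02, −0.05 and −0.13. With the replicate number as a replicate block, 0 members were called in whole animals, while the calls over all genes were 55 higher and 211 lower in place of 73 and 258. In that fit 6 subunits had an unadjusted p under 0.05 in limma, which is 10.5% against 10.2% of all genes tested, and thus near the background. Depth cannot be read from these values, and with 3 samples a group the standard errors of the genotype differences were 0.08 to 0.15 over the 57 subunits.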
